A study of Homo sapiens with 11 samples.

Results

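The MHC class I antigen presentation genes described here are HLA-B, HLA-C and HLA-E, which encode class I heavy chains, B2M, which encodes their light chain beta-2-microglobulin, TAP1, TAP2 and TAPBP, which carry peptides to the chains and load them, and PSMB8 and PSMB9, which encode catalytic subunits of the immunoproteasome. They were chosen by name, 9 of the 57773 genes in the expression table, and all 9 were found there and passed the minimum of a mean of 1 FPKM over the libraries. FPKM is a level of reads corrected for transcript length and library size. TAP2 had 2 entries and the one with the higher mean was used. The same names were looked up in the splicing tables.

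RNA-Seq was performed in HCC78, a human lung adenocarcinoma cell line that carries the splicing factor mutation U2AF1 S34F and an SLC34A2-ROS1 fusion of its own. The cells were transduced with a tet-inducible lentiviral vector for FLAG-6xHA tagged U2AF1, either wild-type or S34F, and stable subclones derived from them were profiled with doxycycline (dox+) or without it (dox-). The 9 libraries are 2 of WT dox+, 2 of S34F dox+, 2 of WT dox-, 1 of S34F dox- and 2 of the untransduced parental line. The parental libraries are given as dox minus in the sample labels and as Dox+ in a table header of the study, so their treatment is uncertain. All groups carry the endogenous mutation. The labels give S34F to wild-type U2AF1 as 12:88 and 14:86 in WT dox+, 62:38 and 65:35 in S34F dox+, 33:67 in both WT dox- libraries, 28:72 in S34F dox- and 32:68 in both parental libraries. No dose or time of doxycycline for these libraries is given in the sources used here. How many subclones each construct had is not given in the sources used here, so construct and subclone cannot be told apart, and nothing in the labels says that replicates came from separate cultures, so p-values measure only the spread between these libraries.

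MHC class I molecules show peptides from inside the cell to cytotoxic T cells. Proteasomes cut the peptides, the TAP1-TAP2 pump moves them into the endoplasmic reticulum, tapasin (TAPBP) bridges the pump to an empty heavy chain bound to B2M, and the loaded complex travels to the surface. Interferons raise many of these genes together, through factors that bind the interferon-stimulated response element (ISRE) and the gamma-activated site (GAS) and through the transactivator NLRC5, and tumours can lose them.

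RefSeq promoter windows of build GRCh38.p14 were matched for 8 of the 9 genes, all but HLA-E, in 10 windows, since PSMB8 and TAP1 have a pair each. Each window runs from 250 bases before to 50 bases after a start. The ISRE core was searched as GAAANNGAAA and the GAS as TTCNNNGAA, on both strands, and no overlap between the motifs was excluded. The ISRE core was found in a window of 5 of the genes, TAP1, TAP2, TAPBP, PSMB8 and B2M, and in 3.57% of all 35116 promoter windows. The GAS was found for 2 genes, PSMB8 and TAP1, and in 7.66% of all windows. A match is a run of letters and not a shown binding site. The stretches that hold the ISRE core are printed because they are what 5 genes of different roles share in sequence. They lie at chr6:32853799-32853858 for TAP1, chr6:32838758-32838817 for TAP2, chr6:33314059-33314118 for TAPBP and chr6:32844012-32844071 for PSMB8, all on the minus strand, and at chr15:44711353-44711412 on the plus strand for B2M. Capitals mark the matches, which overlap one another in TAP1, TAPBP and B2M.

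TAP1: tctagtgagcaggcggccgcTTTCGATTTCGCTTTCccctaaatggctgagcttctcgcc
TAP2: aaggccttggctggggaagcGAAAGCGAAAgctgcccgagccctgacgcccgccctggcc
TAPBP: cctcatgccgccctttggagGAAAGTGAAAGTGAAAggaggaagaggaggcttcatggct
PSMB8: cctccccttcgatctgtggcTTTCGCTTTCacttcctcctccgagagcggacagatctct
B2M: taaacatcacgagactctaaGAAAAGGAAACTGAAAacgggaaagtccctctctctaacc

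The first match begins 134 bases before the start in TAP1, 144 in B2M, 58 in TAP2, 20 in TAPBP and 4 before the second of the PSMB8 starts. In TAP1 and PSMB8 the capitals read as the reverse complement of the motif. TAP1 and PSMB9 lie head to head, their starts 488 bases apart, and their windows share 13 bases. The RefSeq gene spans place HLA-E, HLA-C, HLA-B, TAP2, PSMB8, TAP1, PSMB9 and TAPBP on chromosome 6 between 30489509 and 33314078, and B2M on chromosome 15 from 44711517 to 44718145.

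Of the whole series, these facts bear on the values below. Gene counts are not in the table used, so read depth is known only in relative terms. From the most frequent ratio of low FPKM values, the S34F dox+ libraries had 0.702 and 0.603 of the depth of parental replicate 1 and the other libraries 0.865 to 1.24. S34F dox+ replicate 2 stands apart, with 20896 genes at 1 FPKM or more against 13661 to 17716 in the others. U2AF1 was at 164.44 to 299.05 FPKM in the 4 dox+ libraries and at 102.76 to 115.06 in the 5 others. The 8 epithelial markers summed to 8470 to 11500 FPKM, 6 leukocyte markers, none above 2.72 in any library, to 0.730 to 6.12, and 4 endothelial and fibroblast markers to 3.39 to 11.5. CD3E and MS4A1, which define T and B cells, were at 1.67 or less. In bulk RNA, fewer cells of a type and less RNA per cell cannot be told apart.

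The class I genes were expressed in every library, at levels that ranged widely. B2M was highest, at 3170 ± 293 FPKM (SD, n = 9), followed by HLA-B at 640 ± 42.3, HLA-C at 252 ± 23.1, PSMB8 at 188 ± 11.7 and HLA-E at 151 ± 13.1. PSMB9 at 69.9 ± 4.80, TAPBP at 66.6 ± 3.70, TAP1 at 39.1 ± 2.62 and TAP2 at 32.7 ± 4.54 were lower. The ranges of PSMB8 and HLA-E overlapped, as did those of PSMB9 and TAPBP and those of TAP1 and TAP2, while the ranges of each other neighbouring pair were separate. Within libraries PSMB8 was above HLA-E and TAP1 above TAP2 in all 9, but PSMB9 and TAPBP changed places. Together the genes made up 0.347% to 0.457% of all FPKM, lowest in S34F dox+ replicate 2 and highest in WT dox+ replicate 1. HLA genes are near copies of each other, and the program that counted reads divides those that match several of them, so each level is uncertain to that extent.

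**Figure D1:**
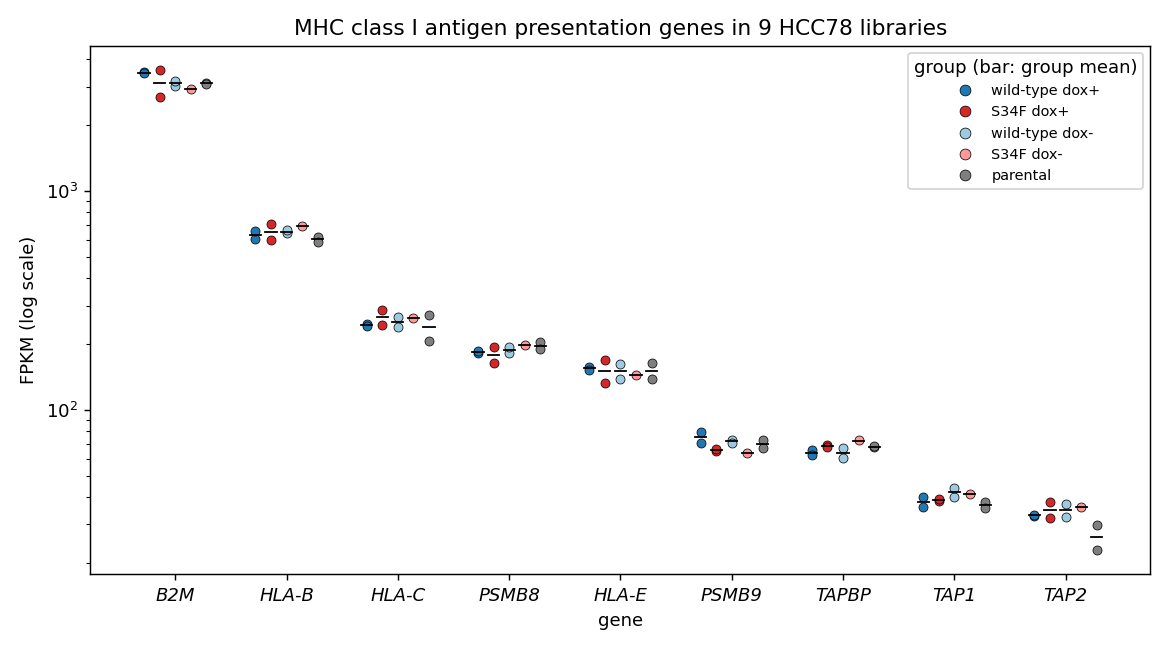
FPKM on a log axis for each of the 9 genes, 1 point a library, coloured by group, with a bar at the group mean. The groups lie on top of one another for most genes, B2M stands highest at a mean of 3170 FPKM and TAP2 lowest at 32.7, with both parental libraries below all others for TAP2.

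Their levels varied little. The SD of log2(FPKM + 1) over the 9 libraries had a median of 0.097 over the genes, against 0.20 over the 7776 genes that averaged at least 10 FPKM. It was 0.080 for TAPBP, lower than in all but 1.59% of those genes, and 0.092 to 0.097 for TAP1 at 0.094, PSMB8, HLA-B and PSMB9, which only 3.42% to 4.48% of genes fell below. HLA-C at 0.14, HLA-E at 0.12 and B2M at 0.13 lay above 13.5% to 18.6% of genes. TAP2 was the exception, at 0.21, above 57.3% of genes. These are descriptions over libraries of 5 groups, and low-level genes are noisier by counting alone.

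The first comparison asked how the levels differed between cells induced to make S34F and cells induced to make wild-type U2AF1. None of the 9 genes differed at an adjusted p under 0.05 (limma, Benjamini-Hochberg over 15179 genes), where 0.0527% of all genes did, and in FPKM none had an unadjusted p under 0.05, where 6.78% of all genes did. The differences, S34F dox+ minus WT dox+ in log2(FPKM + 1), ran from -0.19 to 0.11 with a median of 0.034, beside 0.029 over all genes, and 5 of 9 were above 0. With TPM, a scale on which every library has the same total, all 9 were below 0, with a median of -0.080 beside -0.074 over all genes, so the signs of these differences depend on the scaling. The 95% intervals of all 9 lay between -0.49 and 0.46. An interval of that width does not show that the levels were equal.

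Among the heavy chains, which form the peptide groove, HLA-B was at 605.2 and 654 FPKM in the WT dox+ libraries and at 706 and 598 in those of S34F dox+. For HLA-C the WT dox+ levels were 247 and 242 and the S34F dox+ levels 286 and 244. HLA-E, which mainly presents leader peptides of other class I chains to natural killer cells, stood at 157 and 152 in WT dox+ against 169.6 and 133 in S34F dox+. For all 3 the groups overlapped, and S34F dox+ replicate 1 was the highest of the 9 libraries. The log2 differences were 0.046 for HLA-B (95% interval -0.21 to 0.30, adjusted p = 0.968, limma), 0.11 for HLA-C (-0.24 to 0.46, adjusted p = 0.925) and -0.043 for HLA-E (-0.40 to 0.31, adjusted p = 0.984).

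B2M, which every class I chain needs to reach the surface, was at 3489.5 and 3449 FPKM in WT dox+ against 3575 and 2678 in S34F dox+. One S34F library was the highest of all 9 and the other the lowest. The log2 difference was -0.17 (-0.49 to 0.16, adjusted p = 0.869), and -0.28 with TPM (unadjusted p = 0.0441, adjusted p = 0.536). In FPKM it was -0.37 (unadjusted p = 0.00714, adjusted p = 0.356) without S34F dox+ replicate 1 and 0.043 (adjusted p = 0.918) without replicate 2, so its sign rests on 1 library. The same library, replicate 2, was the lowest of the 9 for HLA-E and PSMB8 too, and the part its lower depth has in these values was not tested. Within libraries, the ratio of B2M to the sum of the 3 heavy chains was 3.46 and 3.29 in WT dox+, 3.08 and 2.75 in S34F dox+, 2.95 and 2.93 in WT dox-, 2.65 in S34F dox- and 3.04 and 3.21 in the parental line. The WT dox+ libraries had the highest ratios, a difference that was not tested.

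For peptide transport, TAP1 was at 39.95 and 35.9 FPKM in WT dox+ against 38.4 and 39.2 in S34F dox+, with a log2 difference of 0.034 (-0.23 to 0.30, adjusted p = 0.984). TAP2, its partner in the pump, was at 32.9 and 33.1 in WT dox+ against 32.0 and 38.0 in S34F dox+, a difference of 0.079 (-0.30 to 0.45, adjusted p = 0.960). Both pairs of groups overlapped. TAPBP was at 65.4 and 62.0 in WT dox+ against 68.95 and 68.1 in S34F dox+. The TAPBP groups did not overlap, S34F being higher in FPKM, yet the difference of 0.10 (-0.14 to 0.34, adjusted p = 0.891) did not pass the test, and with TPM it was -0.012. The ratio of TAP1 to TAP2 stayed between 1.03 and 1.65 in the 9 libraries, so TAP1 was above TAP2 in each library.

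Of the immunoproteasome subunits, PSMB8 was at 182 and 186 FPKM in WT dox+ against 194 and 164 in S34F dox+, and the groups overlapped (log2 difference -0.040, -0.30 to 0.22, adjusted p = 0.976). PSMB9 was at 78.95 and 70.9 in WT dox+ against 64.8 and 66.5 in S34F dox+. The PSMB9 groups did not overlap, S34F being lower, and its difference of -0.19 (-0.43 to 0.062, adjusted p = 0.776) was the one farthest from 0 in this comparison. With TPM it was -0.30 (unadjusted p = 0.0413, adjusted p = 0.535). Groups that did not overlap were thus found for 2 of 9 genes, TAPBP and PSMB9, in opposite directions, against 35.8% of all genes tested. PSMB8 and PSMB9 replace the constitutive subunits PSMB5 and PSMB6 in the proteasome. The ratio of PSMB8 to PSMB5 was 3.53 to 5.37 in the 9 libraries, and that of PSMB9 to PSMB6 was 1.2 and 1.1 in WT dox+, 1.02 and 1.08 in S34F dox+, 0.777 and 0.854 in WT dox-, 0.739 in S34F dox- and 1.01 and 0.966 in the parental line. All 4 dox+ libraries had a higher ratio of PSMB9 to PSMB6 than the other 5. The gap was narrow, 1.02 in S34F dox+ replicate 1 against 1.01 in parental replicate 1, and the treatment of the parental libraries is uncertain. PSMB6 was at 61.83 to 66.04 FPKM in dox+ and 69.57 to 94.07 in the others, without overlap (WT dox+ against WT dox-, adjusted p = 0.179), while the levels of PSMB9 overlapped.

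The second comparison, WT dox+ against WT dox-, measured the response of the wild-type line to doxycycline together with induced wild-type U2AF1. None of the 9 genes was called, where 0.0132% of all genes were, and none had an unadjusted p under 0.05, where 14.4% of all genes did. The log2 differences, WT dox+ minus WT dox-, ran from -0.15 to 0.16 with a median of -0.030, beside 0.049 over all genes. They were -0.052 for HLA-B, -0.041 for HLA-C, 0.048 for HLA-E and 0.16 for B2M. They were -0.15 for TAP1, -0.076 for TAP2, 0.004 for TAPBP, -0.030 for PSMB8 and 0.058 for PSMB9, and adjusted p over the 9 genes was 0.592 to 0.996 (limma). Groups did not overlap for 2 genes, against 49.6% of all genes. B2M was at 3470 ± 28.7 FPKM (SD, n = 2) in WT dox+ and 3100 ± 123 in WT dox-, and TAP1 was at 37.9 ± 2.86 against 42.1 ± 2.76, with 39.95 as the higher WT dox+ value and 40.1 as the lower WT dox- value.

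In S34F dox-, the only library of its group, the log2 differences of the 9 genes from WT dox- ran from -0.17 to 0.19. A single library cannot show that the levels were equal. The fit took the spread of that library from the other groups. No gene was called, where 0.0461% of all genes were, and none had an unadjusted p under 0.05, against 3.12%. The log2 differences, S34F dox- minus WT dox-, were 0.085 for HLA-B, 0.066 for HLA-C, -0.048 for HLA-E, -0.088 for B2M, -0.026 for TAP1, 0.044 for TAP2, 0.19 for TAPBP, 0.080 for PSMB8 and -0.17 for PSMB9. TAPBP at 72.55 FPKM and PSMB9 at 63.73 in this library were the highest and the lowest of the 9 libraries for their gene. S34F minus wild-type was therefore above 0 for TAPBP and below 0 for PSMB9 both with and without doxycycline in FPKM, with none of the 4 values past the test and TAPBP with doxycycline at -0.012 in TPM.

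The contrast of the responses, (S34F dox+ minus S34F dox-) minus (WT dox+ minus WT dox-), shares its libraries with the comparisons above. No gene was called, where 0.0264% of all genes were, none had an unadjusted p under 0.05, against 3.42%, and the smallest unadjusted p was 0.517. The values were -0.040 for HLA-B, 0.046 for HLA-C, 0.005 for HLA-E, -0.078 for B2M, 0.061 for TAP1, 0.035 for TAP2, -0.085 for TAPBP, -0.12 for PSMB8 and -0.015 for PSMB9, with 95% intervals between -0.59 and 0.63. Their median was -0.015, beside 0.035 over all genes.

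Against the parental line, whose doxycycline treatment is uncertain, WT dox- differed most in TAP2. It was at 37.4 and 32.4 FPKM in WT dox- and at 22.9 and 29.9 in the parental line, and at 32.0 to 38.0 in every transduced library, so both parental libraries were below all 7 others. The log2 difference, WT dox- minus parental, was 0.40 (SE 0.161, 95% interval 0.023 to 0.77, unadjusted p = 0.0402) and did not pass the test (adjusted p = 0.378, limma). It was 0.58 without parental replicate 2 and 0.21 without replicate 1, with adjusted p of 0.436 and 0.751. None of the 9 genes was called, where 0.0988% of all genes were, and in FPKM TAP2 alone had an unadjusted p under 0.05, against 12.3% of all genes. With TPM HLA-B also did, at 0.22 (unadjusted p = 0.0428, adjusted p = 0.326). The other differences were 0.12 for HLA-B, 0.085 for HLA-C, -0.014 for HLA-E, 0.19 for TAP1, -0.093 for TAPBP, -0.072 for PSMB8 and 0.037 for PSMB9. B2M had a mean of 3100 FPKM in both groups (95% interval of the log2 difference -0.32 to 0.32). The groups did not overlap for 4 genes, HLA-B, TAP1, TAP2 and TAPBP, against 44.0% of all genes, and TAPBP was the one of these that was lower in WT dox-.

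**Figure D2:**
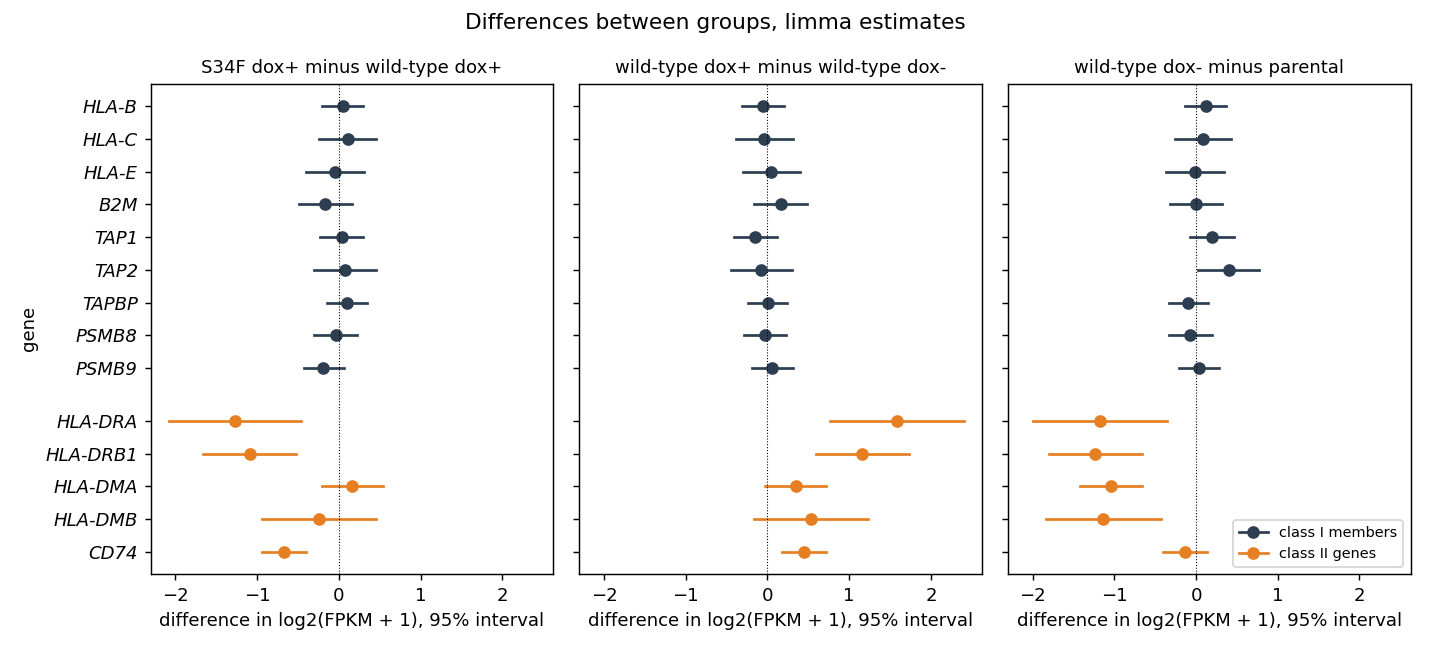
Differences in log2(FPKM + 1) between groups with 95% intervals from limma, for the 9 class I genes (dark) and the 5 class II genes that were tested (orange), in 3 comparisons. Class I differences lie between -0.19 and 0.40 in these comparisons, and those of HLA-DRA and HLA-DRB1 are between 1.09 and 1.58 in size, none past an adjusted p of 0.05.

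The rest of the pathway was described from 59 genes in 6 lists, and none of them was called in any of the 5 comparisons. Among other class I chains and class I-like receptors, 6 of 8 were tested, none had an unadjusted p under 0.05 in S34F dox+ against WT dox+, and the median log2 difference was 0.20. The largest differences were FCGRT, the neonatal Fc receptor, at -0.31, HFE, a regulator of iron uptake, at 0.24, MICB, a stress ligand, and HLA-F. Of the 12 genes of peptide supply, none had an unadjusted p under 0.05 and the median was -0.052, with PSME3, a proteasome activator subunit, at 123.78 and 125.01 FPKM in WT dox+ against 106.24 and 100.93 in S34F dox+, and with ERAP1, which trims peptides in the endoplasmic reticulum, at 14.48 and 15.47 against 18.93 and 19.42. PSMB10, the third immunoproteasome subunit, was at 29.03 and 29.68 against 27.31 and 22.64. The 8 loading chaperones had a median of 0.058, with 6 above 0 and none at an unadjusted p under 0.05. The largest difference among them went the other way, in TAPBPL, a tapasin relative, at -0.20. Its levels were 41.73 and 43.39 FPKM in WT dox+ against 37.47 and 36.47 in S34F dox+.

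Of 16 regulators, 1 had an unadjusted p under 0.05 in that comparison, CREB1, a factor of the class I enhanceosome, at 27.48 and 34.31 FPKM in WT dox+ against 53.18 and 43.55 in S34F dox+ (log2 difference 0.63, unadjusted p = 0.00563, adjusted p = 0.538). CIITA, the master regulator of class II genes, was at 3.3 and 3.25 in WT dox+, 2.43 and 2.46 in S34F dox+, 0.84 and 1.15 in WT dox-, 1.25 in S34F dox- and 1.68 and 2.19 in the parental line. Of 7 tested interferon receptors and kinases, 1 had an unadjusted p under 0.05, IFNGR2, a chain of the interferon gamma receptor, at 28.29 and 28.4 in WT dox+ against 40.5 and 36.65 in S34F dox+ (0.43, unadjusted p = 0.00602, adjusted p = 0.543). Over these 2 lists, 2 of 23 tested genes had an unadjusted p under 0.05, near the 6.78% of all genes.

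The class II genes, which present peptides taken up from outside the cell, varied more than the class I genes. HLA-DRA was at 4.44 and 4.58 FPKM in WT dox+, 1.61 and 1.0 in S34F dox+, 1.18 and 0.55 in WT dox-, 0.74 in S34F dox- and 4.36 and 2.22 in the parental line. HLA-DRB1 was at 14.97 and 18.0 in WT dox+, 9.09 and 5.66 in S34F dox+, 5.6 and 8.22 in WT dox-, 6.51 in S34F dox- and 18.16 and 16.53 in the parental line. CD74, the invariant chain, was at 290.59 and 312.92 in WT dox+ and at 182.15 to 256.36 in the 7 other libraries. WT dox+ and parental libraries were thus the high ones for the 2 HLA-DR chains, and S34F dox+ lay below them, with replicate 1 above and replicate 2 within the range of the dox- libraries of the transduced lines.

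In S34F dox+ against WT dox+, the log2 difference was -1.27 for HLA-DRA, -1.09 for HLA-DRB1 and -0.67 for CD74. These were the 3 of 5 tested class II genes with an unadjusted p under 0.05 (limma), where 6.78% of all genes had one. Their adjusted p was 0.546, 0.488 and 0.297, so none was called. The other 2 were HLA-DMA at 0.16 and HLA-DMB at -0.24. In WT dox+ against WT dox-, the same 3 were at 1.58, 1.16 and 0.45, with adjusted p of 0.156, 0.156 and 0.184, HLA-DMA at 0.35 and HLA-DMB at 0.53. In WT dox- against the parental line, HLA-DRA was at -1.18, HLA-DRB1 at -1.23, HLA-DMA at -1.04 and HLA-DMB at -1.14, with adjusted p of 0.265, 0.143, 0.103 and 0.225, and CD74 was at -0.14 with an adjusted p of 0.673. These comparisons share the WT dox+ or the WT dox- libraries, and HLA-DRB1 has near copies whose reads can be divided among them. The difference between the class I and class II lists was not tested.

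**Figure D3:**
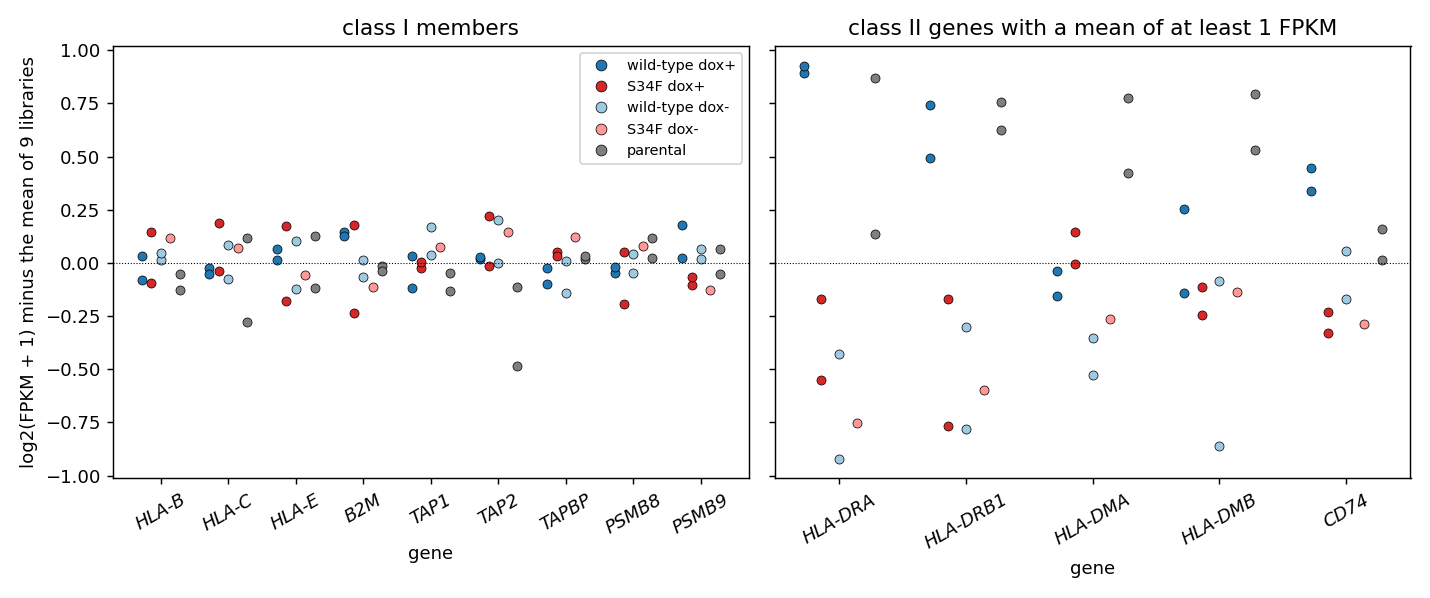
log2(FPKM + 1) of each library minus the gene's mean over 9 libraries, for the 9 class I genes (left) and the 5 class II genes that averaged at least 1 FPKM (right), coloured by group on the same axis. Class I points mostly stay within 0.25 of their mean, TAP2 in parental replicate 1 being the farthest, and WT dox+ and parental points are the high ones for HLA-DRA and HLA-DRB1.

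The genes whose levels were most like the class I genes over the 9 libraries were chosen by Pearson's r with the mean z-score of the 9 genes. Among protein-coding genes that averaged at least 10 FPKM, SRSF11 had r = 0.936, NDFIP2 0.932, MED20 0.930 and PEX26 0.896. They were picked as the highest among all such genes over only 9 libraries, so high values of r can arise from the choice alone. The 9 genes themselves had r from -0.0427 for PSMB9 and -0.0359 for TAP2 to 0.721 for HLA-C and 0.769 for HLA-B, so they did not share 1 pattern. Each of the 9 is part of that mean, which raises its r. The mean z-score was highest in S34F dox+ replicate 1, at 0.60, and lowest in S34F dox+ replicate 2, at -0.65. The extremes were therefore replicates of 1 group.

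Splicing was described from the deposited MISO comparison of S34F with wild-type. It gives PSI (percent spliced in, as a fraction), a Bayes factor for a difference and read counts. It holds no values per replicate and so allows no replicate check. Read counts were nearly equal over events of 1 transcript, such as 13423 to 13469 in S34F for the 5 events of HLA-B. They therefore appear to count the whole transcript and not only the reads that bear on the event. The tables name their sides only as mutant and wild-type, and that they hold the dox+ libraries is an assumption. A difference was called at a PSI difference of at least 0.1, a Bayes factor of at least 5 and at least 10 reads. Of 92662 events in 5 types, 55 were listed under the 9 genes and all 55 had the reads. One of the 55 was called, where 1.18% of the 87763 events with enough reads were. On the strand of the gene, 41 of the 55 belonged to 1 of the 9 genes alone. Another 4 were listed under both TAP2 and its neighbour HLA-DOB. The remaining 10 were plus-strand events listed under PSMB9, most of them under PSMB8 too, and were shared with TAPSAR1, an antisense RNA of this locus. Of the 41 events, 38 differed by at most 0.05 in PSI and 39 had a Bayes factor under 1.

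The called event was a retained intron of TAP1, on chromosome 6 from 32814981 to 32815290, minus strand, within a transcript from 32812986 to 32821755. These are the coordinates of the splicing tables, which name no build, while the labels name GRCh37 (hg19). The intron between those exon ends is 308 bases long. PSI was 0.86 in S34F against 0.97 in wild-type, at a Bayes factor of 55.48 and from 1188 and 1864 reads. Other events of TAP1 had 1160 and 1854 reads, so these totals do not show how many reads bear on the intron. The PSI difference was just past the 0.1 threshold. Among retained introns, 2.55% of 5573 were called, 142 in all, of which 83 had a lower and 59 a higher PSI in S34F. Of those 142, 135 had a larger difference than TAP1 and 38 a larger Bayes factor. The tables do not say which form PSI counts. An intron of B2M (45007899 to 45008527 on chromosome 15) and introns of HLA-B and HLA-C were at 0.99. Another B2M event (45007757 to 45007840) was at 0.0 from 8823 and 14763 reads. It lies between the splice sites at 45007621 and 45007899 of other B2M events, within 1 exon, where a spliced share near 0 is possible. An HLA-E event was at 0.43 and 0.39. Retained introns with at least 1000 reads in each condition had a wild-type PSI of 0.9 or more in 60.0% of 830 cases and of 0.1 or less in 7.95%. PSI was therefore read here, without proof, as the share of the spliced form. On that reading the unspliced form was 0.14 of the TAP1 event in S34F and 0.03 in wild-type, and on the opposite reading the direction turns. The libraries were made from total RNA, which also holds RNA not yet spliced. TAP1 had 2 more events, at 0.97 against 0.98 and 0.01 against 0.01, and its FPKM did not differ in the test above.

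HLA-B had the other event with a Bayes factor of at least 5. Its skipped exon, which lies between 31322442 and 31323094 in the same coordinates, had a PSI of 0.99 in S34F against 0.97 in wild-type, from 13432 and 18324 reads, with a Bayes factor of 15.79. The difference of 0.02 was below the threshold. An exon of HLA-C, by contrast, was at 0.23 and 0.24 with 6341 and 8380 reads (Bayes factor 0.07). HLA genes are near copies of each other, so reads placed on the wrong gene may alter these PSI values. That was not tested, and the share of HLA-C transcripts with this exon is uncertain. The 5 events of B2M had Bayes factors of at most 0.16 at 4831 to 27202 reads and differed by at most 0.02.

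Among the other genes, the event with the largest Bayes factor was a retained intron at 0.43 against 0.39 in HLA-E (0.35), an alternative 5′ splice site at 0.96 against 0.99 in TAP2 (0.29) and a tandem acceptor at 0.77 in both conditions in PSMB8 (0.64). In PSMB9 it was a skipped exon at 0.88 against 0.95 with 194 and 310 reads (0.24). TAPBP had the largest PSI difference of an event of 1 gene alone, a tandem acceptor at 0.53 in S34F and 0.73 in wild-type, but its Bayes factor was 0.82 at 1051 and 1377 reads, so it was not called. The largest difference of all 55 was an alternative 3′ splice site listed under both TAP2 and HLA-DOB. It was at 0.58 against 0.23 with a Bayes factor of 3.1 and 96 and 92 reads, also not called. Its transcript, from 32780540 to 32784825, lies apart from that of the event of TAP2 alone, from 32793192 to 32806557. Whether it belongs to TAP2 is therefore uncertain. Reads were fewer in S34F for most events, and their median ratio of S34F to wild-type over all events was 0.688.

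**Figure D4:**
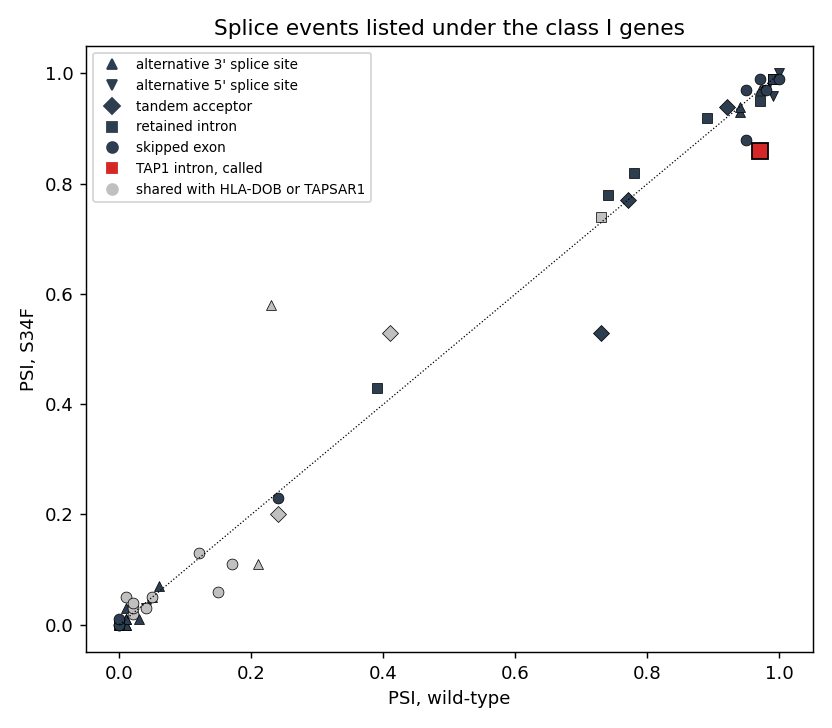
PSI in S34F against PSI in wild-type for the 55 splice events listed under the class I genes, with the shape showing the event type, grey the events shared with HLA-DOB or TAPSAR1 and red the called TAP1 intron. Most points lie near the dotted line of equal PSI, and the TAP1 intron, at 0.86 against 0.97, is closer to it than the TAPBP tandem acceptor, at 0.53 against 0.73, which was not called.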

How the data were processed

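Total RNA was prepared with a stranded kit and sequenced in paired-end reads by the authors, who trimmed them, aligned them with STAR 2.3.0 to GRCh37 (hg19) and estimated FPKM and TPM per gene with RSEM 1.2.29, per the labels and the study's methods. The deposited table holds FPKM and TPM values and no gene counts, so the authors' DESeq2 test could not be repeated. Whether counting used strand is not given in the sources used here. For splicing the authors deposited MISO values of PSI (a fraction), Bayes factors and read counts for S34F against wild-type, without replicates. First and second columns were read as S34F and wild-type from the order in the tables' names, and that they hold the dox+ libraries is an assumption. No per-sample column was left unassigned. The U2AF1 iCLIP samples were not analysed here.

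From the FPKM values, log2(FPKM + 1) was compared by limma 3.58.1 under R 4.3.3 (trend, 5 groups in 1 fit, no covariates) over the 15179 genes that averaged at least 1 FPKM, adjusted by Benjamini-Hochberg. Fold changes on this scale understate the change of low genes. The exact permutation p of 2 against 2 libraries cannot go below 0.333, so it was not used. No pair of libraries had identical FPKM in more than 1.92% of the genes tested. For splicing, events repeated under several gene names were counted once, and where an event had several isoforms, that of the largest Bayes factor stood for it. PSI of 2-site events was read by comparison with the same sites in events of several isoforms.

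The 9 genes, the other lists and the tests were chosen with earlier results of these data known. Genes named are the 9 in every comparison, up to 4 per list with the largest absolute difference in S34F dox+ against WT dox+, those with the largest Bayes factor or a call for splicing, and the 5 most like genes, of which 1 is not reported here, nor is 1 leukocyte marker. HLA-DRA, HLA-DRB1, CD74, HLA-DMA, HLA-DMB, CIITA, PSMB5 and PSMB6 were given further values after their values were seen. Alternatives were the pseudocount, the minimum, the scaling, TPM, a replicate block, leaving out 1 replicate at a time and the event thresholds.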

Additional observations from a re-analysis of the deposited data

How the results depend on the processing

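The count of class I genes called was 0 of 9 in each of the 5 comparisons under every alternative run for it, and 0 without any 1 replicate, and the smallest adjusted p of any of them was 0.259 (TAP2, WT dox- against parental, TPM). With the replicate block, which treats replicate numbers as pairs, it was also 0. The numbers do not pair the libraries, since deviations of same-numbered libraries correlated at -0.076 to 0.037. Of the member splice events, 1 was called with a Bayes factor of at least 20, and 0 with a PSI difference of at least 0.2. With 10 reads in each condition 1 was called too. That setting could not change the count, since all 55 events had more reads than that in each condition. Over all genes, the number called was 3 to 28 (8 as reported) for S34F dox+ against WT dox+, 0 to 9 (2) for WT dox+ against WT dox-, 2 to 33 (4) for the contrast of responses, 4 to 112 (7) for S34F dox- against WT dox- and 3 to 28 (15) for WT dox- against parental, the 2 highest counts, 112 and 33, with no minimum FPKM. The median of the 9 genes moved from 0.034 to -0.080 with TPM in S34F dox+ against WT dox+ and from -0.030 to -0.15 with median-ratio scaling in WT dox+ against WT dox-. In the contrast of responses, the median of the 9 genes moved from -0.015 to -0.17 with TPM and with median-ratio scaling. The median of all genes moved there from 0.035 to -0.11 with both.
Small differences between groups changed sign in 77 of 504 recomputed values of the 9 genes. All of these had a log2 value of at most 0.17 in size as reported. No value of the 9 genes was called in any setting, so a sign change could not involve a called value. With TPM, the log2 differences of the other sign were -0.072 for HLA-B, -0.006 for HLA-C, -0.080 for TAP1, -0.035 for TAP2, -0.012 for TAPBP and -0.026 for SEC61A1 in S34F dox+ against WT dox+, and 0.008 for TAP1 in S34F dox- against WT dox-, and -0.11 for HLA-C, -0.15 for HLA-E, -0.088 for TAP1 and -0.11 for TAP2 in the contrast of responses, and 0.088 for HLA-E, 0.10 for B2M, 0.008 for TAPBP and 0.030 for PSMB8 in WT dox- against parental. With median-ratio scaling, the log2 differences of the other sign were -0.022 for HLA-B and -0.031 for TAP1 in S34F dox+ against WT dox+, and 0.043 for HLA-E, 0.003 for B2M and 0.063 for TAP1 in S34F dox- against WT dox-, and -0.11 for HLA-C, -0.15 for HLA-E, -0.094 for TAP1 and -0.12 for TAP2 in the contrast of responses, and -0.070 for HLA-E, -0.11 for TAPBP and -0.060 for PSMB9 in WT dox+ against WT dox-, and 0.001 for B2M in WT dox- against parental. With quantile normalization, the log2 differences of the other sign were -0.015 for HLA-C and 0.038 for B2M in S34F dox- against WT dox-, and 0.067 for HLA-B, 0.013 for HLA-C and 0.059 for PSMB8 in WT dox+ against WT dox-, and 0.12 for B2M in WT dox- against parental. With the replicate block, the log2 differences of the other sign were -0.009 for TAP2 in S34F dox- against WT dox-, and -0.015 for HLA-C in the contrast of responses. Leaving out 1 replicate at a time gave these ranges for differences that changed sign. In S34F dox+ against WT dox+ they were -0.37 to 0.043 for B2M, -0.074 to 0.17 for HLA-B, -0.002 to 0.23 for HLA-C, -0.22 to 0.13 for HLA-E, -0.069 to 0.47 for HLA-F, -0.041 to 0.50 for IFNAR2, -0.30 to 0.10 for PDIA3, -0.16 to 0.082 for PSMB8, -0.015 to 0.20 for SEC61A1, -0.040 to 0.11 for TAP1 and -0.040 to 0.20 for TAP2. In S34F dox- against WT dox- they were -0.013 to 0.14 for HLA-C, -0.16 to 0.065 for HLA-E, -0.092 to 0.039 for TAP1 and -0.057 to 0.14 for TAP2. In the contrast of responses they were -0.29 to 0.13 for B2M, -0.16 to 0.080 for HLA-B, -0.068 to 0.16 for HLA-C, -0.17 to 0.18 for HLA-E, -0.24 to 0.002 for PSMB8, -0.092 to 0.061 for PSMB9, -0.014 to 0.14 for TAP1 and -0.084 to 0.15 for TAP2. In WT dox+ against WT dox- they were -0.11 to 0.004 for HLA-B, -0.12 to 0.038 for HLA-C, -0.064 to 0.16 for HLA-E, -0.075 to 0.015 for PSMB8, -0.019 to 0.13 for PSMB9, -0.18 to 0.025 for TAP2 and -0.071 to 0.079 for TAPBP. In WT dox- against parental they were -0.041 to 0.040 for B2M, -0.11 to 0.28 for HLA-C, -0.13 to 0.11 for HLA-E and -0.020 to 0.094 for PSMB9.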
